A study of Mus musculus with 13 samples.

Results

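The genes described here are the 10 NF-kB subunits and inhibitors *Nfkb1*, *Nfkb2*, *Rel*, *Rela*, *Relb*, *Nfkbia*, *Nfkbib*, *Nfkbie*, *Tnfaip3* and *Bcl3*. They were found by gene name, all 10 were among the 13222 genes listed, and all 10 were among the 12319 genes that passed the filter on low reads. Bulk RNA was measured in 13 libraries of 4T1-Thy1.1 cells, a mouse mammary carcinoma line from BALB/c mice that expresses a Thy1.1 transgene, and every group carries that transgene. Cells in culture were left untreated (control, replicates 1, 3 and 5, n = 3) or were exposed for 48 hours to 200 ng/mL DOX (doxorubicin, an anthracycline that damages DNA, replicates 1 to 4, n = 4), to 25 ng/mL recombinant mouse IL-17A (an inflammatory cytokine, replicates 2, 3 and 5, n = 3), or to both at these doses (DOX+IL-17A, replicates 2, 3 and 5, n = 3). The model is a single cell line. The methods describe replicates as biological in general terms, and neither they nor the labels say which of these libraries came from separate cultures, so that p-values measure the spread between these libraries, which may in part be technical. In bulk RNA of this kind, fewer cells of a type and less RNA per cell cannot be told apart.

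NF-kB is a family of dimeric transcription factors built from the subunits RelA (p65), RelB, c-Rel, p50 (cut from the *Nfkb1* product) and p52 (cut from the *Nfkb2* product). In resting cells IkB proteins hold the dimers in the cytoplasm, and signals from cytokine receptors, Toll-like receptors or DNA damage activate the IKK kinase complex, which marks IkB for degradation. Several of the genes that NF-kB then switches on encode its own inhibitors, among them *Nfkbia* (IkB alpha) and *Tnfaip3* (A20), which makes the pathway known for feedback. The text below asks whether the transcripts of these regulators differed with DOX, with IL-17A and with both.

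Values are CPM (reads scaled to a common library total) with TMM factors, a correction for differences in library make-up, taken at the 3' ends of transcripts, so that they need no division by transcript length. Libraries held 4445592 to 16930600 reads on listed genes, and 3 reads, the smallest level taken as detectable, corresponded to values of 0.183 to 0.613. Such floors cover counting error only, since the reads carry no molecular identifiers. The fewest reads behind any value of the 10 genes were 19, for *Bcl3* in a DOX library, and the largest number was 13326, for *Nfkbia*. A gene was called when limma's adjusted p was under 0.05 and the fold change above 2. Control replicate 1 stood apart from the other controls, with summed fibroblast markers (5 of 7 genes listed) of 143 against 48.2 and 50.2 in the other controls. DOX replicate 1 held skeletal muscle markers (all 10 listed) at a sum of 295 and red blood cell markers (3 of 6 listed) at 66.5, against 15.6 to 39.9 and 1.34 to 5.47 in the other DOX libraries. The 8 epithelial markers were all detected in every library, with sums of 2020 to 2433 in control, 1781 to 2172 in IL-17A, 1040 to 1161 in DOX and 925 to 1181 in DOX+IL-17A. Sums of the immune cell markers (5 of 12 listed) were 20.1 to 21.3 in control, 27.4 to 63.8 in DOX, 16.7 to 25.2 in DOX+IL-17A and 11.9 to 16.6 in IL-17A, and *Ptprc*, the pan-leukocyte marker, lay between 0 and 3.57. Epithelial markers were thus lower in all libraries with DOX, and immune cell markers higher in DOX than in control, in the same libraries as the genes below, and their part in the results was not tested.

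With DOX, 3 of the 10 genes rose past the call threshold and 0 fell. These were the inhibitors *Nfkbib* and *Nfkbia* and the subunit *Relb*. Of all tested genes 9.15% were called higher and 6.18% lower in this comparison. With DOX+IL-17A, 2 of the 10 rose against control (*Nfkbib* and *Nfkbia*) and 0 fell, where 6.95% of all tested genes were called higher and 5.95% lower. Over the 10 genes the median log2 fold change was 0.71 for DOX and 0.69 for DOX+IL-17A, beside 0.09 and 0.04 over all tested genes. These 2 comparisons share their control libraries. The libraries of the compared groups did not overlap for 5 of the 10 genes with DOX (*Nfkb2*, *Relb*, *Nfkbia*, *Nfkbib* and *Nfkbie*) and for 4 with DOX+IL-17A (*Nfkb2*, *Relb*, *Nfkbia* and *Nfkbib*), where 33.7% and 30.1% of all tested genes did not overlap.

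**Figure D1:**
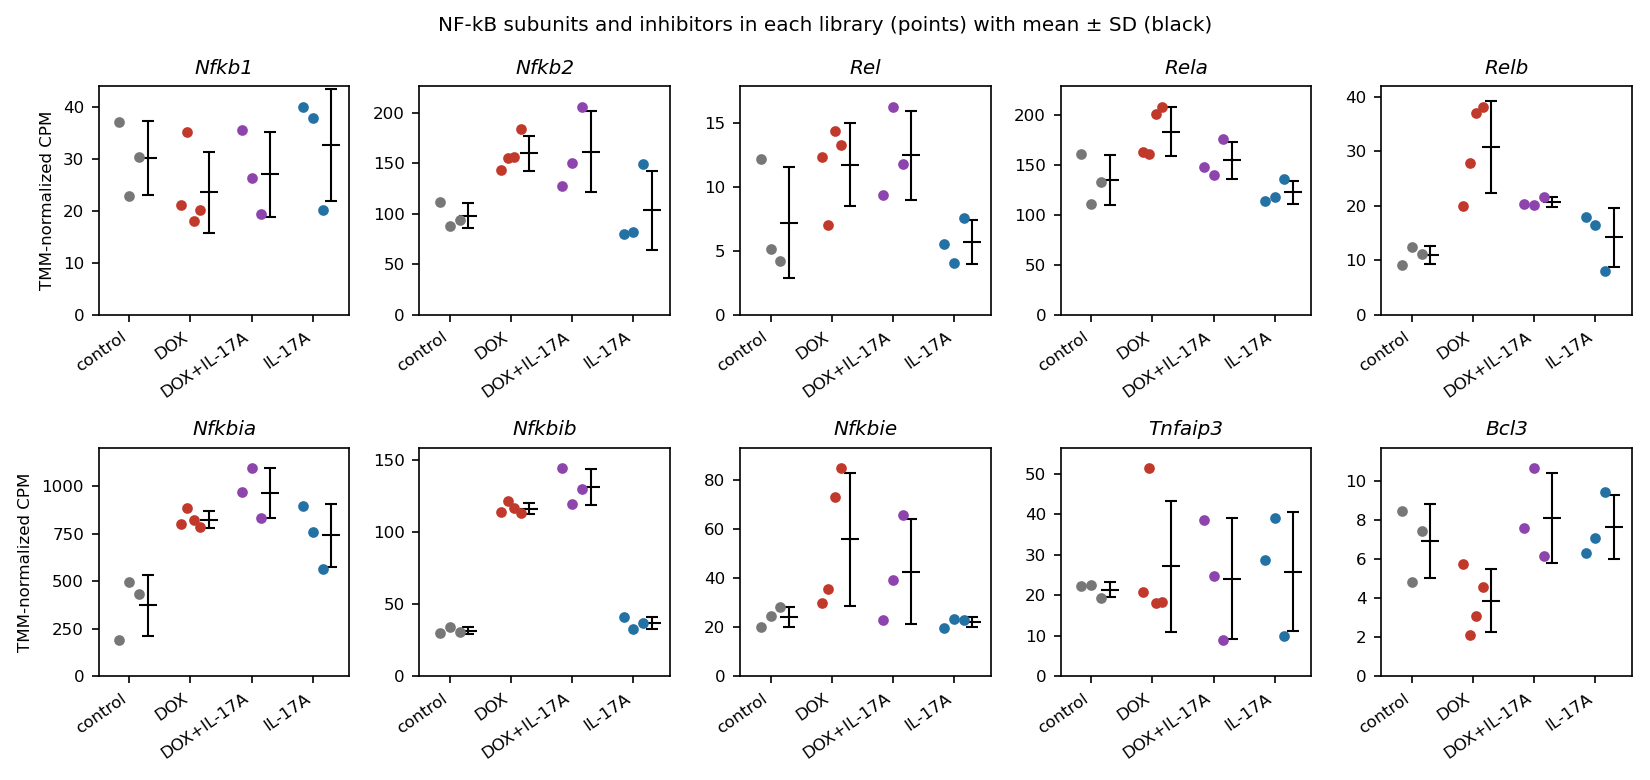
Level of each of the 10 genes by condition, in TMM-normalized CPM on a linear axis from 0, with a point for each library and the mean ± SD in black (4 libraries of DOX and 3 of each other condition). The *Nfkbib* points of DOX and DOX+IL-17A, 113 to 144, all lie above those of control and IL-17A, 29.8 to 41.0, and the *Nfkbia* points of control, 193 to 494, lie below those of the other 3 conditions.

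*Nfkbib* encodes IkB beta, an inhibitor that holds NF-kB dimers in the cytoplasm, and it had the largest change of the 10 genes in both DOX comparisons with control. Its levels were 29.8, 34.1 and 30.8 in the control libraries, 114, 121, 116 and 113 in DOX, 144, 119 and 130 in DOX+IL-17A, and 41.0, 32.9 and 37.2 in IL-17A. Every library with DOX lay above every library without it, and control overlapped with IL-17A, as DOX did with DOX+IL-17A. The mean went from 31.5 ± 2.26 (SD, n = 3) to 116 ± 3.70 (n = 4) with DOX, 3.67 times the control mean. Its log2 fold change was 1.85 (standard error, SE, 0.17, adjusted p = 9.7e-06, limma), which placed it 259th from the highest of all tested genes. With DOX+IL-17A the mean was 131 ± 12.5 (n = 3) and the log2 fold change from control 2.02 (SE 0.18, adjusted p = 2.3e-05). It was also the 1 gene of the 10 called between DOX+IL-17A and IL-17A, with a log2 fold change of 1.80 (SE 0.18, adjusted p = 6.1e-05). IL-17A without DOX gave a mean of 37.0 ± 4.08 (n = 3) and a log2 difference of 0.22, with a 95% interval from -0.17 to 0.61. The gene lies on the minus strand of mouse chromosome 7 (GRCm38, chr7:28758251-28767512). Within 1000 bases of its 3' end an exon of *Ccer2* runs on the opposite strand, and farther in an exon of *Sirt2* overlaps it. *Sirt2* was not called with DOX (log2 fold change 0.48, adjusted p = 0.23), *Ccer2* was not analysed here, and the strand setting of the read counting is not given in the sources used here.

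*Nfkbia* encodes IkB alpha, the inhibitor that is broken down and remade within an NF-kB response, and was the most abundant of the 10 transcripts in every library. It measured 193, 494 and 433 in control, 799, 887, 821 and 786 in DOX, 968, 1095 and 832 in DOX+IL-17A, and 899, 760 and 565 in IL-17A. All control libraries were below all treated ones, and the 3 treated conditions overlapped among themselves. Means were 373 ± 159 (SD, n = 3) in control, 823 ± 45.2 (n = 4) in DOX, 965 ± 132 (n = 3) in DOX+IL-17A and 741 ± 168 (n = 3) in IL-17A. DOX gave a log2 fold change of 1.25 (SE 0.27, adjusted p = 0.0052), and DOX+IL-17A gave 1.47 (SE 0.29, adjusted p = 0.0038). The DOX value rested in part on control replicate 1, the lowest library. Without it the log2 fold change was 0.83 (adjusted p = 0.0066), under the fold needed for a call. *Nfkbia* lies on the minus strand at chr12:55489410-55492647 (GRCm38).

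*Nfkbie* encodes IkB epsilon, a further inhibitor of the same family. Control libraries had levels of 20.1, 24.3 and 28.2, DOX libraries 29.9, 35.6, 73.0 and 84.6, DOX+IL-17A libraries 22.9, 39.2 and 65.5, and IL-17A libraries 19.6, 23.4 and 23.1. All 4 DOX libraries were above the controls, the lowest by little, and DOX+IL-17A overlapped with control. The mean was 24.2 ± 4.02 (SD, n = 3) in control and 55.8 ± 27.1 (n = 4) in DOX. The log2 fold change of 1.05 (SE 0.37) missed the threshold at an adjusted p of 0.055, and edgeR (0.038), DESeq2 (0.016) and scaling by library size (0.029) brought it under 0.05. With DOX+IL-17A it was 0.68 (adjusted p = 0.25). The gene spans chr17:45555703-45563169 on the plus strand (GRCm38).

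Summed over *Nfkbia*, *Nfkbib* and *Nfkbie*, the 3 IkB genes had levels of 243 to 552 in control, 943 to 1044 in DOX, 1027 to 1254 in DOX+IL-17A and 625 to 960 in IL-17A. *Nfkbib* made up 6.18 to 12.3% of this sum in control, 11.5 to 12.1% in DOX, 9.50 to 12.7% in DOX+IL-17A and 4.03 to 5.95% in IL-17A. The highest control share, 12.3%, belonged to control replicate 1, whose *Nfkbia* was low, and the other controls were near 6.2%. *Nfkbia* reached its highest share with IL-17A, 92.4 ± 1.77% (SD, n = 3). Set against the sum of the 5 subunit genes, the ratio of inhibitor to subunit tags was 0.733, 2.30 and 1.81 in the control libraries, 2.12 to 2.71 in DOX, 2.37 to 3.55 in DOX+IL-17A and 1.95 to 3.73 in IL-17A. The ratios overlapped with those of control in DOX and IL-17A and did not in DOX+IL-17A.

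**Figure D2:**
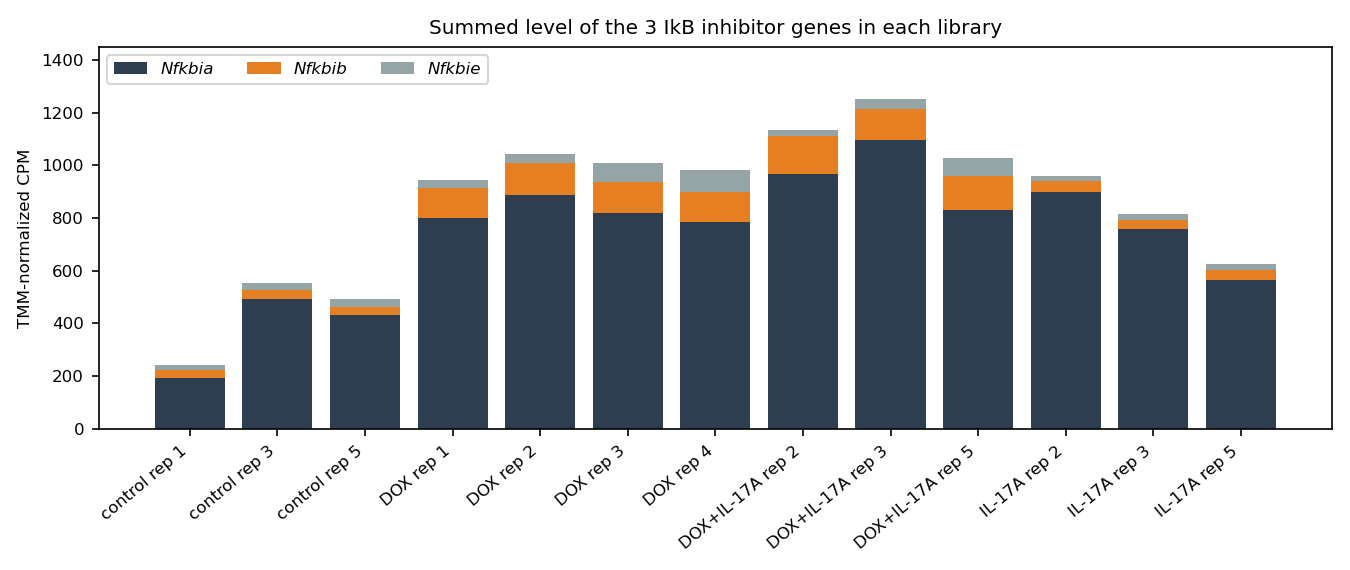
Stacked levels of *Nfkbia*, *Nfkbib* and *Nfkbie* in each of the 13 libraries, in TMM-normalized CPM on an axis from 0. *Nfkbia* is the bulk of every bar, the *Nfkbib* segment is widest in the 7 libraries with DOX, and control replicate 1 has the lowest sum, 243.

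*Relb* encodes RelB, the subunit that pairs with p52 in the non-canonical pathway. It was at 9.14, 12.4 and 11.2 in control, 20.0, 27.9, 37.0 and 38.2 in DOX, 20.2, 20.2 and 21.7 in DOX+IL-17A, and 18.0, 16.5 and 8.04 in IL-17A. Every library with DOX was above every library without it, and the IL-17A libraries spanned the controls. The mean rose from 10.9 ± 1.63 (SD, n = 3) to 30.8 ± 8.52 (n = 4) with DOX, or by a log2 fold change of 1.38 (SE 0.31, adjusted p = 0.0055). With DOX+IL-17A the mean was 20.7 ± 0.84 (n = 3), and the log2 fold change of 0.87 did not pass (SE 0.33, adjusted p = 0.076). The difference between DOX+IL-17A and DOX was -0.51, with a 95% interval from -1.16 to 0.14, which holds both no difference and a fall by more than 1 on the log2 scale. *Relb* spans chr7:19606217-19629438 on the minus strand (GRCm38).

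*Nfkb2* encodes p100, which is cut to p52 and otherwise acts as an IkB-like inhibitor of RelB. Its levels in control were 112, 88.2 and 93.4, in DOX 143, 155, 156 and 184, in DOX+IL-17A 128, 150 and 206, and in IL-17A 79.6, 81.7 and 149. The DOX and DOX+IL-17A libraries all exceeded the controls, and 1 IL-17A library reached into the DOX range. The log2 fold change with DOX was 0.70 (SE 0.23, adjusted p = 0.043), past the adjusted p but not the fold. That adjusted p ran from 0.018 to 0.11 with single libraries left out, and from 0.0094 to 0.053 over the other alternatives. At the adjusted p alone, 4 of the 10 genes were higher with DOX and 2 with DOX+IL-17A, where 12.4% and 9.37% of all tested genes were. With DOX+IL-17A, *Nfkb2* had a log2 fold change of 0.69 (SE 0.25, adjusted p = 0.067). The gene lies on the plus strand at chr19:46304320-46312385 (GRCm38), and exons of *Psd*, a gene on the opposite strand, overlap its last 1000 bases. *Psd* itself rose from 19.7 ± 10.5 (SD, n = 3) to 72.1 ± 15.5 (n = 4) with DOX, or by a log2 fold change of 1.91 (adjusted p = 0.00072). Without the strand setting the reads of these 2 genes cannot be told apart here.

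*Rela*, the gene of the p65 subunit that carries the main activation domain, was the most abundant subunit transcript in control, at 161, 111 and 133. It measured 163, 161, 201 and 208 in DOX, 147, 140 and 176 in DOX+IL-17A, and 114, 118 and 136 in IL-17A. DOX and control met at about 161, and the log2 fold change of 0.44 (SE 0.19, adjusted p = 0.098) did not pass. *Rela* lies at chr19:5637483-5648130 on the plus strand.

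*Rel*, the gene of the c-Rel subunit best known from lymphocytes, was low, at 12.2, 5.18 and 4.24 in control, 12.3, 7.01, 14.4 and 13.3 in DOX, 9.41, 16.3 and 11.8 in DOX+IL-17A, and 5.52, 4.09 and 7.55 in IL-17A. Control replicate 1 was level with the DOX libraries and the other 2 controls lay below all of them. Against control, DOX gave a log2 fold change of 0.72 (adjusted p = 0.18) and DOX+IL-17A one of 0.81 (adjusted p = 0.17). Without control replicate 1 these were 1.12 (adjusted p = 0.035) and 1.21 (adjusted p = 0.033), both past the call threshold. *Rel* lies at chr11:23736847-23770970 on the minus strand.

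*Nfkb1*, the gene of p105, the precursor of p50, overlapped between all conditions. Its libraries were at 37.2, 22.9 and 30.4 in control, 21.1, 35.1, 18.0 and 20.2 in DOX, 35.6, 26.3 and 19.4 in DOX+IL-17A, and 40.1, 37.9 and 20.3 in IL-17A. The log2 difference was -0.36 with DOX (95% interval -1.03 to 0.31, adjusted p = 0.43) and -0.17 with DOX+IL-17A (-0.88 to 0.55, adjusted p = 0.77). It spans chr3:135584655-135691547 on the minus strand.

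*Tnfaip3* encodes A20, the ubiquitin-editing enzyme that ends NF-kB signaling upstream of IKK. Its control levels were 22.3, 22.5 and 19.3. DOX libraries had 20.8, 51.3, 18.0 and 18.3, DOX+IL-17A libraries 38.6, 24.6 and 8.86, and IL-17A libraries 28.6, 39.0 and 9.84. The treated libraries scattered on both sides of the controls, and DOX replicate 2 was far above the other DOX libraries. The log2 difference with DOX was 0.19, with a 95% interval from -0.87 to 1.25, so that a doubling lay inside the interval. *Tnfaip3* lies at chr10:19000910-19015657 on the minus strand.

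*Bcl3* encodes an atypical IkB protein that works in the nucleus with p50 or p52 dimers. It had levels of 8.46, 4.81 and 7.43 in control, 5.71, 2.08, 3.08 and 4.56 in DOX, 7.57, 10.6 and 6.12 in DOX+IL-17A, and 6.31, 7.07 and 9.43 in IL-17A. All DOX libraries lay below the DOX+IL-17A and IL-17A libraries and overlapped with control. The log2 fold change with DOX was -0.73 (SE 0.35, adjusted p = 0.14). *Bcl3* lies at chr7:19808462-19822770 on the minus strand, where antisense genes overlap it.

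**Figure D3:**
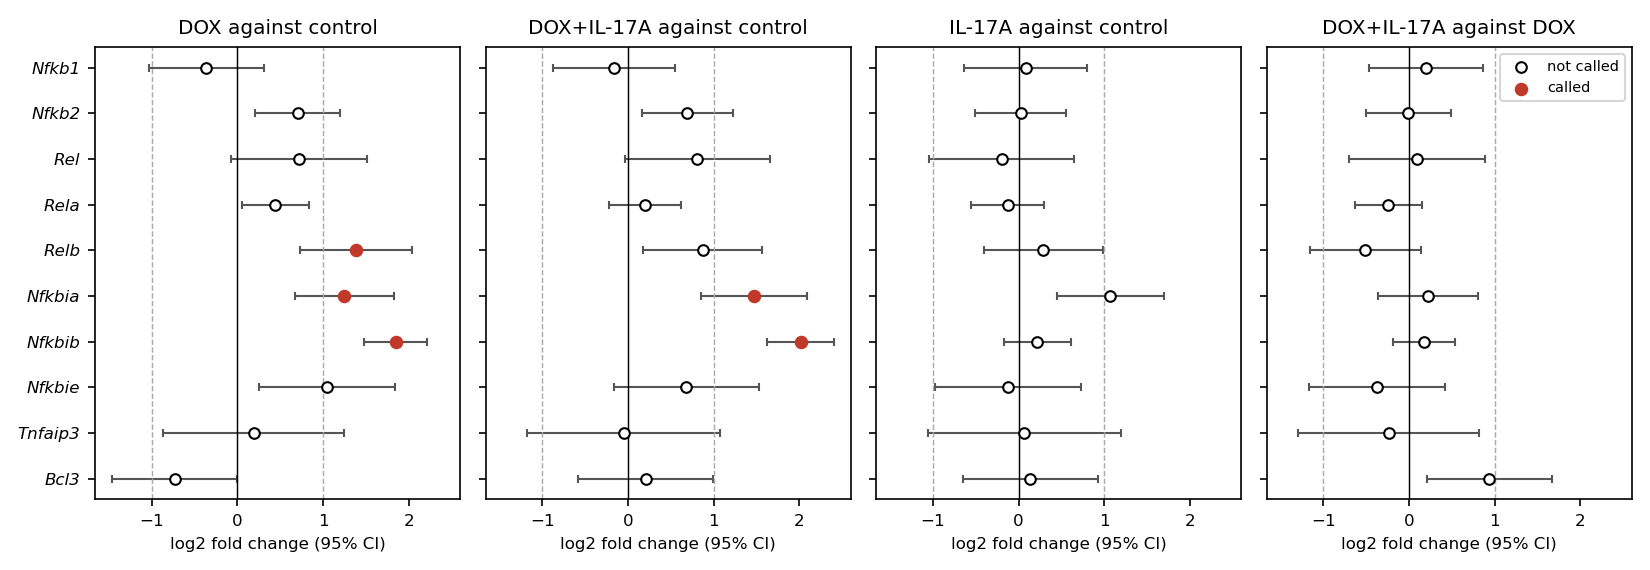
Log2 fold change of each of the 10 genes (points) with its 95% confidence interval (bars) in 4 comparisons, from the limma fit on 13 libraries. Filled points passed the call threshold, dashed lines mark a fold change of 2 in either direction, and filled points appear only in the panels of DOX and DOX+IL-17A against control.

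IL-17A alone left the 10 genes without a call in limma. The count was 0 in each direction, and also 0 by voom with limma, edgeR and DESeq2, where 0.00812% of all tested genes were called higher and 0.0% lower. At an unadjusted p under 0.05 there was 1 of the 10, *Nfkbia*, with a log2 difference of 1.07 (SE 0.29, 95% interval 0.45 to 1.69, adjusted p = 0.96), where 380 of the 12319 tested genes had such a p. All 3 IL-17A libraries exceeded all 3 controls for *Nfkbia*, the only one of the 10 genes without overlap, where 6.04% of all tested genes did not overlap. Without control replicate 1 the difference was 0.65. The other 9 genes had log2 differences from -0.20 (*Rel*) to 0.29 (*Relb*).

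The addition of IL-17A to DOX likewise gave 0 calls among the 10 genes in limma, voom with limma, edgeR and DESeq2, beside 0.114% of all tested genes higher and 0.325% lower. The 1 gene at an unadjusted p under 0.05 was *Bcl3*, which went from 3.86 ± 1.60 (SD, n = 4) in DOX to 8.10 ± 2.30 (n = 3) in DOX+IL-17A, a log2 difference of 0.94 (SE 0.35, 95% interval 0.20 to 1.67, adjusted p = 0.54). Of the 12319 tested genes, 782 had such a p. *Bcl3* was also the 1 gene of the 10 without overlap between these groups, where 10.3% of all tested genes did not overlap. For *Nfkbib* the difference was 0.17 (95% interval -0.19 to 0.54) and for *Nfkbia* 0.22 (-0.36 to 0.80). For each of these genes a fold of 2 in either direction lay outside the interval.

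DOX+IL-17A against IL-17A, the effect of DOX in the presence of the cytokine, gave 1 call higher (*Nfkbib*) and 0 lower, beside 4.92% and 4.92% of all tested genes. At the adjusted p alone it was also 1 gene, where 6.51% of all tested genes were higher. Groups did not overlap for *Rel*, *Rela*, *Relb* and *Nfkbib*, 4 of the 10, where 32.0% of all tested genes did not overlap. *Nfkbia*, high in both groups, had a log2 difference of 0.40 (SE 0.29, adjusted p = 0.40). Whether the effect of IL-17A differed with and without DOX was tested as an interaction, with 0 of the 10 genes called by limma, voom with limma, edgeR and DESeq2 (0.0% of all tested genes in limma). At an unadjusted p under 0.05 there was again 1 gene, *Nfkbia* (log2 difference of effects -0.85, SE 0.40, adjusted p = 0.90), against 556 of the 12319 tested genes. Its unadjusted p was 0.0496 in limma, and with single libraries left out the difference ran from -1.11 to -0.43.

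Sequences upstream of the genes are shown because several of these genes are textbook targets of the factor they regulate. Windows of 300 bases, 250 before and 50 after the start, came from RefSeq with its starts (GRCm38.p6) and covered 8 of the 10 genes, *Nfkb1* and *Relb* being the other two. The kB consensus of 10 bases was searched on both strands. It was found in windows of 6 of these 8 genes, against 1388 of all 27025 genes with a window (5.14%) and 595 of the 9424 tested ones (6.31%). A match is a description of letters and not a bound site. The matching letters, read on the strand of each gene with positions counted from the start, were as follows, and blocks of 11 bases hold 3 overlapping matches. *Nfkb2* has 3 RefSeq starts and thus 3 windows (chr19:46304487-46304786, chr19:46305445-46305744 and chr19:46305680-46305979), and each position is counted from the start of its own window. The latter 2 windows overlap, and the last *Nfkb2* line is the same stretch of the genome as the line before it.
Nfkbia, from -29: GGAAATTCCC
Nfkb2, from -39: GGGAATTCCCC
Nfkb2, from -11: GGGGCTTTCC
Nfkb2, window from a second start, from -236: GGAATGTCCC
Nfkb2, window from a second start, from 11: GGGACTTTCC
Nfkb2, window from a further start, from -225: GGGACTTTCC
Tnfaip3, from -125: GGGACACCCC
Tnfaip3, from -12: GGAAATCCCC
Rel, from -92: GGGAAATCCCC
Nfkbie, from -106: GGGGGATTCC
Bcl3, from 3: GGGAAGTCCC

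Of the genes that were called, *Nfkbia* is the one whose window holds a match, and its window is printed for that reason. The windows of *Nfkbib*, the gene with the largest change and no match, of *Nfkb2*, with 4 matches in its first window, and of *Tnfaip3*, with 2 matches and no call, were added after their values were seen. Capitals mark the matches and all other bases are in lower case. *Nfkbia* (chr12:55492598-55492897, minus strand), *Nfkbib* (chr7:28766595-28766894, minus strand), *Nfkb2* (chr19:46304487-46304786, plus strand) and *Tnfaip3* (chr10:19015361-19015660, minus strand) read 5' to 3' as follows.
Nfkbia: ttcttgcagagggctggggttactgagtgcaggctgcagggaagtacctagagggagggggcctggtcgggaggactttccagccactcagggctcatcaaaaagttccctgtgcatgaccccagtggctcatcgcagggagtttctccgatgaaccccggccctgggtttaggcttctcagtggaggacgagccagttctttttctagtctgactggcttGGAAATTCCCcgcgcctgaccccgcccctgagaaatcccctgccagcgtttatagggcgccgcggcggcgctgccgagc
Nfkbib: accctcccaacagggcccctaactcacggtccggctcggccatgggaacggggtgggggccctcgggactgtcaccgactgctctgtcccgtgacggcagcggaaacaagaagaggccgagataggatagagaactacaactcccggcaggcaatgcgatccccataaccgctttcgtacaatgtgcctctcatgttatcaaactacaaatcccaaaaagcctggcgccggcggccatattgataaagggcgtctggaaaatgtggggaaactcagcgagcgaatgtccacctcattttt
Nfkb2: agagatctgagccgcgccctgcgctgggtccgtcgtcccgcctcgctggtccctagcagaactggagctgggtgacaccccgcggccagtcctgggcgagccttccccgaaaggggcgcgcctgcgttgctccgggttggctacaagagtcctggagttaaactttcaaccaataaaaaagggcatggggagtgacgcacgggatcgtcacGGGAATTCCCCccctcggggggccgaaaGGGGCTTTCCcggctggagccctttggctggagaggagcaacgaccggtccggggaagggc
Tnfaip3: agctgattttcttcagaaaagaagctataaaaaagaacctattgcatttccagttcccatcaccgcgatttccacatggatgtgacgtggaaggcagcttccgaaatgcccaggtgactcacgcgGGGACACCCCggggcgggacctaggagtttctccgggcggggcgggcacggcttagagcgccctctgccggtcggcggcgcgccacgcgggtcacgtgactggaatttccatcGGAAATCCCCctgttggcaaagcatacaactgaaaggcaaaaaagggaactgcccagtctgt

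*Nfkbia* had a match near the start and rose by 1.25 on the log2 scale with DOX, and *Nfkbib* had none in its window and rose by 1.85. The other genes with matches were *Nfkbie* (log2 fold change with DOX 1.05), *Rel* (0.72), *Nfkb2* (0.70), *Tnfaip3* (0.19) and *Bcl3* (-0.73). None of these was called with DOX, and *Nfkb2* passed the adjusted p alone, in the main fit but not in every alternative. *Rela*, without a match, was at 0.44 and was not called. Whether the matches bear on these changes was not tested. The letters of the window say nothing about sites outside it.

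Other genes of the pathway were described from lists by role, given as counts and medians. Of 4 measured genes of atypical IkB and IkB-binding proteins, 1 was called higher with DOX, *Nkiras1* (kB-Ras 1, which binds IkB proteins), with a log2 fold change of 1.42 (adjusted p = 0.018). It went from 2.07 ± 0.76 (SD, n = 3) to 7.51 ± 3.47 (n = 4). All-gene shares for this comparison were 9.15% higher and 6.18% lower, as above. The *Nkiras1* call was lost by voom with limma (adjusted p = 0.060), without DOX replicate 2 and without control replicate 5. With DOX+IL-17A 2 were called, *Nkiras1* at 1.34 (adjusted p = 0.038) and *Nfkbiz* (IkB zeta, a nuclear co-activator of IL-17A responses) at 2.09 (adjusted p = 0.0042). In this comparison 6.95% of all tested genes were called higher and 5.95% lower. The *Nkiras1* call with DOX+IL-17A was lost without 6 of the 13 libraries, each left out in turn (DOX replicates 1 and 4, DOX+IL-17A replicates 2 and 3, control replicates 1 and 5), by voom with limma and when only the compared groups were fitted. That of *Nfkbiz* was kept in all 21 alternatives. *Nfkbiz* stood at 66.4 ± 34.8 (n = 3) in control, 76.4 ± 46.2 (n = 4) in DOX, 264 ± 33.8 (n = 3) in DOX+IL-17A and 179 ± 27.5 (n = 3) in IL-17A. The libraries with IL-17A thus all exceeded the control and DOX libraries. Between IL-17A and control 6.04% of all tested genes did not overlap, and between DOX+IL-17A and DOX 10.3%. IL-17A alone gave 0 calls in this list. Between DOX+IL-17A and DOX, limma called *Nfkbiz* higher (1.98, adjusted p = 0.041), beside 0.114% of all tested genes. That call was lost in 11 of 21 alternatives, among them edgeR (adjusted p = 0.094) and 8 fits with a library left out.

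The IKK list, which holds the kinases that mark IkB for degradation and NIK, had 12 measured genes. With DOX 1 was called higher and 0 lower, *Tank* (a scaffold of IKK-related kinases, log2 fold change 1.13, adjusted p = 0.010), a call lost without control replicate 1. The all-gene shares of this comparison were 9.15% up and 6.18% down. DOX+IL-17A gave 1 call higher, *Ikbke* (IKK epsilon, 1.06, adjusted p = 0.036), where 6.95% of all tested genes were. That call was lost without DOX+IL-17A replicate 2, 3 or 5, without control replicate 3 or 5, and when only the compared groups were fitted. The core kinases and their scaffold were not called. Log2 differences with DOX were 0.67 for *Chuk* (IKK alpha), -0.07 for *Ikbkb* (IKK beta), 0.24 for *Ikbkg* (NEMO) and -0.50 for *Map3k14* (NIK), with a list median of 0.10.

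Among 40 measured receptors and adaptors upstream of IKK, 6 were called higher and 3 lower with DOX, with a median of 0.22, beside 9.15% and 6.18% of all tested genes. The highest were *Zbp1*, a sensor of nucleic acids, which went from 4.79 ± 2.41 (SD, n = 3) to 98.8 ± 16.8 (n = 4), a log2 fold change of 4.20 (adjusted p = 1.9e-06), *Tnfrsf12a*, the TWEAK receptor, at 2.19 (adjusted p = 0.025), and *Myd88*, the adaptor of Toll-like and IL-1 receptors, at 1.89 (adjusted p = 0.0011). The lowest were *Il1r1*, the IL-1 receptor, at -1.44 (adjusted p = 0.010), *Tab1* at -1.22 and *Map3k1* at -1.07. Without DOX replicate 1 the count was 6 higher and 1 lower, and under library-size scaling 7 and 1. The calls of *Zbp1*, *Myd88* and *Il1r1* with DOX were kept in all 21 alternatives, whereas *Tnfrsf12a* lost its call by edgeR and voom and without control replicate 1 or 5 or DOX replicate 2 or 3, *Tab1* without any of 6 libraries (DOX replicates 1, 3 and 4, DOX+IL-17A replicate 3, control replicates 1 and 5), by voom and when only the compared groups were fitted, and *Map3k1* without DOX replicate 1 or control replicate 5. Library-size scaling ended the calls of *Tab1* and *Map3k1* too. In the DOX+IL-17A libraries 3 exceeded control and 2 lay below it past the threshold, with *Zbp1* at 2.50, *Cd40* at 1.80 and *Myd88* at 1.41 the highest, beside 6.95% and 5.95% of all tested genes. The *Myd88* call was lost without DOX+IL-17A replicate 2 and when only the compared groups were fitted. The 2 lower genes were *Il1r1* at -1.43 (adjusted p = 0.018) and *Map3k1* at -1.09 (adjusted p = 0.029). Their calls were lost in 5 and 6 of 21 alternatives. *Zbp1* was also the 1 gene of the list called between DOX+IL-17A and DOX, beside 0.114% of all tested genes higher and 0.325% lower. It fell by 1.70 on the log2 scale (adjusted p = 0.020). That call was lost with a pseudocount of 0.1 and without DOX replicate 3 or 4 or any of the 3 DOX+IL-17A libraries. *Il17ra* and *Il17rc*, which encode the receptor of the cytokine used, had log2 differences of 0.14 and 0.13 with DOX and were not called.

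Among 23 measured ubiquitin ligases, deubiquitinases and related regulators, to which A20 belongs by function, 2 were called higher and 1 lower with DOX, beside 9.15% and 6.18% of all tested genes. *Usp18*, a protease that removes ISG15, rose from 9.22 ± 0.23 (SD, n = 3) to 81.4 ± 33.4 (n = 4), a log2 fold change of 2.92 (adjusted p = 2.6e-05). *Spata2*, which brings the deubiquitinase CYLD to receptor complexes, rose by 1.50 (adjusted p = 0.00074). *Btrc*, which encodes the ligase subunit that recognizes marked IkB, fell by 1.20 (adjusted p = 0.032), a call lost without control replicate 1 or DOX replicate 1 or 2, under library-size scaling and when only the compared groups were fitted. With DOX+IL-17A the higher genes included *Spata2* at 1.46 and *Usp18* at 1.17, and the lower one was *Pdlim2* at -1.73, which encodes a ligase for nuclear RelA. The *Usp18* call with DOX+IL-17A was lost by voom with limma, without DOX+IL-17A replicate 2 or 5 or control replicate 5, and when only the compared groups were fitted. *Usp18* was lower in DOX+IL-17A than in DOX by a log2 difference of -1.74 (adjusted p = 0.020), and this call was lost without DOX replicate 3 or 4 or any of the 3 DOX+IL-17A libraries.

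Of the 46 measured textbook NF-kB target genes, 23 were called higher and 1 lower with DOX, and 26 higher and 1 lower with DOX+IL-17A. Of all tested genes, 9.15% were called higher and 6.18% lower with DOX, and 6.95% and 5.95% with DOX+IL-17A. The median log2 fold changes of the list were 1.23 and 1.95, beside 0.09 and 0.04 over all tested genes. This list was written with earlier results of these data known and holds genes already seen to change, so it is no independent evidence of a direction. The order of these genes is that of the fit on log2(value + 1), which understates low genes such as *Il6*. With DOX the highest were *Cxcl10*, a chemokine for T cells also induced by interferon, the chemokine *Ccl20* and the adhesion molecule *Icam1*. *Cxcl10* went from 4.76 ± 0.96 (SD, n = 3) to 117 ± 38.6 (n = 4), a log2 fold change of 4.31 (adjusted p = 2.3e-05). *Ccl20* was at 3.63 (adjusted p = 0.0031) and *Icam1* at 3.49 (adjusted p = 2.6e-05). *Ccl20* lost its calls with DOX and DOX+IL-17A by voom with limma. *Il1b* was the gene that fell, by 1.21 on the log2 scale (adjusted p = 0.019), a call lost without control replicate 1 or DOX replicate 2 or 3, and without control replicate 1 no gene of the list was called lower while 21 were called higher. Without DOX replicate 1, which had muscle and red blood cell markers, 19 rose and 2 fell past the threshold.

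With DOX+IL-17A the highest of the targets were the acute phase gene *Saa3* at 5.75 (adjusted p = 0.00028), *Ccl20* at 4.53 (adjusted p = 0.0015) and the neutrophil chemokine *Cxcl1* at 4.39 (adjusted p = 0.0017). The gene called lower was *Il1b* at -1.19 (adjusted p = 0.034). Its call was lost in 8 of 21 alternatives, edgeR and library-size scaling among them. IL-17A alone gave 0 calls among the 46 in limma, voom with limma and edgeR and 3 in DESeq2, with a median of 0.44 and 13 genes at an unadjusted p under 0.05. Of the 12319 tested genes, 380 had such a p, and limma called 0.00812% higher and 0.0% lower. Between DOX+IL-17A and DOX 4 were higher and 0 lower, with a median of 0.50. The count was 7 without control replicate 1 and 0 by edgeR. In limma 23 of the 46 had an unadjusted p under 0.05, where 782 of the 12319 tested genes did. Limma called 0.114% of all tested genes higher and 0.325% lower. The 3 highest of the targets were *Lcn2* at 3.86, *Saa3* at 3.84 and *Il1a* at 2.46. All 3 calls were lost by edgeR, with a pseudocount of 0.1, and without DOX replicate 3 or 4 or any of the 3 DOX+IL-17A libraries. That of *Lcn2* was also lost by DESeq2 and without control replicate 5 or IL-17A replicate 3 or 5, that of *Saa3* by DESeq2, and that of *Il1a* under library-size scaling and without control replicate 5 or IL-17A replicate 2 or 3. Between DOX+IL-17A and IL-17A 13 were higher and 1 lower, beside 4.92% and 4.92% of all tested genes. *Il6*, the interleukin-6 gene, had 0 reads in all control and IL-17A libraries, 3.06 to 6.80 in DOX and 7.49 to 19.2 in DOX+IL-17A. Setting the genes with 0 reads in a whole group to their bound of 3 reads per library left the medians at 1.23 with DOX and 1.95 with DOX+IL-17A.

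**Figure D4:**
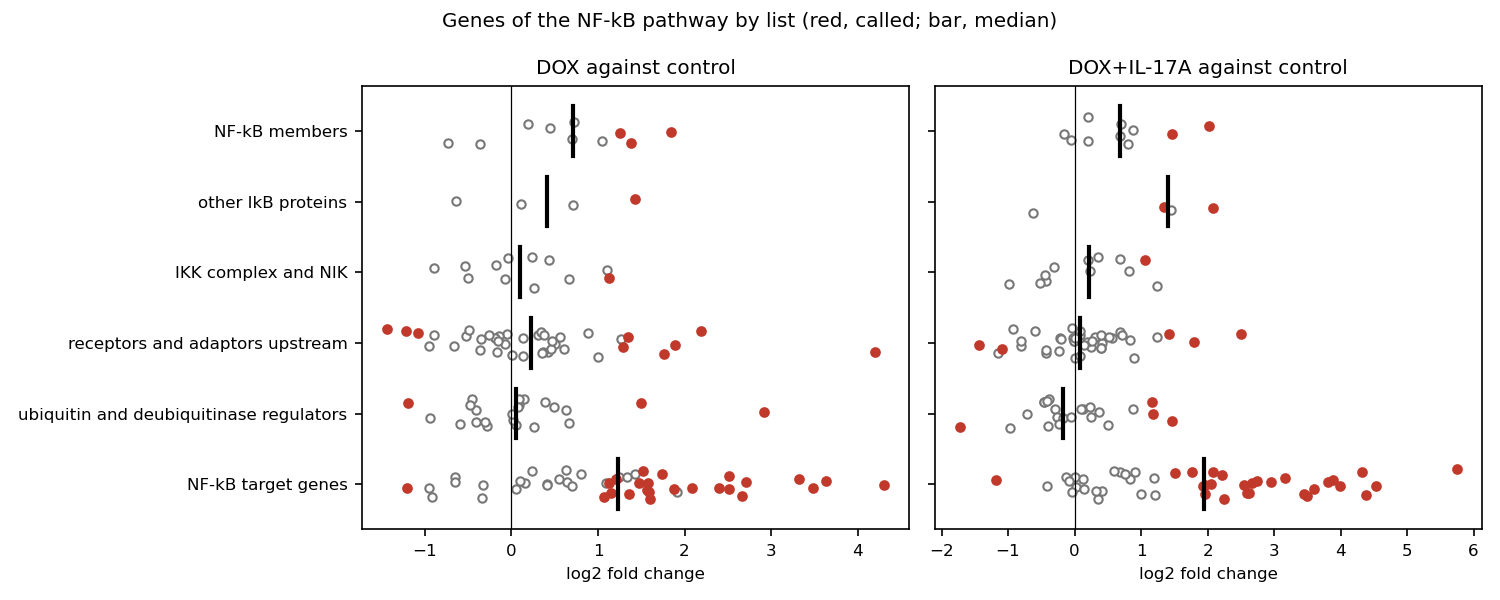
Log2 fold change of every measured gene of the 10 NF-kB genes and of 5 further pathway lists, with DOX (left) and DOX+IL-17A (right) against control. Red points passed the call threshold, open points did not, and the black bar is the list median, which is 1.23 and 1.95 for the target genes.

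Some pairs of the 10 genes varied together over the 13 libraries. The share of such pairs among all tested genes was not computed. Pearson's r of log2(value + 1) was above 0.7 in 9 of the 45 pairs and below -0.6 in 3. The highest was 0.83, for *Nfkb2* and *Rela*, and the lowest -0.68, for *Nfkb1* and *Nfkbie*. *Nfkb1* and *Tnfaip3*, neither of which passed a test, had an r of 0.75 with each other. The points share the 4 conditions and their libraries, so these values describe the table and carry no test.

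**Figure D5:**
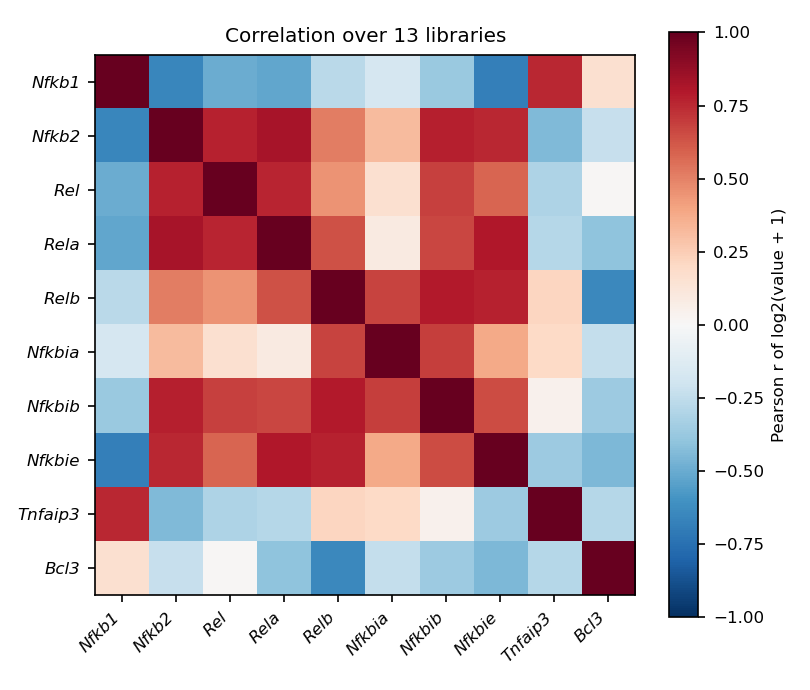
Pearson's r between the log2 levels of each pair of the 10 genes over 13 libraries, from -1 (blue) to 1 (red). *Nfkb1* and *Tnfaip3* are red with each other (0.75) and blue or pale with most of the others.

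For each of the 10 genes the 3 tested genes with the highest r over the same 13 libraries were looked up, among genes with a mean value of at least 5. *Nfkbib* was closest to *Uqcrq* (r = 0.982), *Phgdh* (0.979) and *Rnd1* (0.979), and *Nfkbia* to *Pomgnt1* (0.965), *Cks1b* (0.956) and *Fbl* (0.954). *Relb* was closest to *Zfp955a* (0.972), *Nfkb2* to *Rmdn3* (0.965), *Rela* to *Ifitm3* (0.959), *Rel* to *Rrbp1* (0.955) and *Nfkbie* to *Tex9* (0.954). The nearest genes were less alike for *Tnfaip3* (*Pfn1*, 0.917), *Bcl3* (*Itga2*, 0.913) and *Nfkb1* (*Rcn2*, 0.871). The best of many genes over 13 libraries has a high r in any case, so these values are a description.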

How the data were processed

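RNA of 13 libraries of cultured 4T1-Thy1.1 cells was measured by 3' mRNA sequencing with single reads of 75 bases. According to the methods and the submitters' processing notes, the authors checked reads with FastQC, trimmed them with Trimmomatic, aligned them to mm10 with STAR, counted them per gene with featureCounts and scaled the counts by TMM. The deposited signal of each gene and library is a TMM-scaled CPM, and replicates were not pooled. The strand setting and gene annotation of the counting are not given in the sources used here. The table had 13223 entries, of which 1 identical repeat was dropped, and 17 gene names had been turned into dates.

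Within each library all values (100.0%) were multiples of the value of 1 read (tolerance 0.05 reads), which gave back the whole reads. The largest and smallest libraries held 16930600 and 4445592 reads. All replicate pairs differed by more than counting noise (chi-square per degree of freedom of 8.04 or more, over genes with enough reads). Groups came from the sample titles. Groups were compared by limma with trend, applied to log2(value + 1), so that fold changes of low genes are understated, and fitted on all 13 libraries by condition alone (residual degrees of freedom, 9). It covered the 12319 genes kept by filterByExpr of edgeR on the recovered reads, with Benjamini-Hochberg adjustment over all of them. A call needed an adjusted p below 0.05 together with a fold above 2, and for the interaction the adjusted p only. Intervals are 95% intervals of the same fit. The tests were also tested on simulated data.

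The 10 genes, the pathway and marker lists and the tests were chosen with earlier results of these data known. From the further lists up to 3 called genes with the highest and 3 with the lowest fold change per comparison are named, and core IKK, NIK, IL-17A receptor and overlapping genes for their role. The result of 1 gene that this rule selects is not reported here. Gene positions are from GENCODE M21 (GRCm38). Alternatives were a block for the replicate number, each library left out in turn, library-size scaling, no low-read filter, a fit restricted to the compared groups, a pseudocount of 0.1, calls by adjusted p only, and, run on whole reads, DESeq2, edgeR's quasi-likelihood test and voom with limma. Counts of the pathway lists without control replicate 1 or DOX replicate 1, and the calls of the named pathway genes under these alternatives, were added after the data were seen. Software was limma 3.58.1, DESeq2 1.42.0 and edgeR 4.0.16 in R 4.3.3, and pandas 2.3.3, scipy 1.17.1 and matplotlib 3.10.9 in python 3.11.15.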

Additional observations from a re-analysis of the deposited data

Results flagged for a closer look

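*Tnfaip3* in DOX replicate 2 stood apart from the other DOX libraries. Its level of 51.3 left a gap to the next library that took up 0.916 of the range of the 4 libraries, above Dixon's 95% critical value for 4 samples. Chance exceeds that critical value in about 1 of 20 groups. *Nfkb1* was also highest in this library among the DOX libraries, at 35.1, and *Bcl3* lowest, at 2.08.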

How the results depend on the processing

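Of the counts of called genes among the 10, 3 moved. That for DOX against control was 4 in place of 3, with *Nfkbie*, by edgeR, DESeq2 and library-size scaling. DOX+IL-17A against control gave 1 in place of 2 when only the compared groups were fitted, where *Nfkbia* had an adjusted p of 0.050, and 3 under library-size scaling, and DOX+IL-17A against IL-17A gave 2 in place of 1 without control replicate 1, where *Rel* was added (log2 fold change 1.01, adjusted p = 0.043). Leaving out each library in turn gave 3 to 4 calls for DOX, 2 to 3 for DOX+IL-17A against control, 1 to 2 against IL-17A, and 0 in the other 3 comparisons. Of single genes, 12 results gained and 2 lost their call, 1236 kept their side of the threshold, and 0 called values changed sign. *Nfkbie* with DOX accounts for 8 of the gains and *Rel*, without control replicate 1, for 3. The last is *Relb* with DOX+IL-17A under scaling by library size (1.04, adjusted p = 0.042). The lost calls are those of *Nfkbia* named above and in the report. Under library-size scaling the all-gene median was 0.24 for DOX (0.09 with TMM) and 0.20 for DOX+IL-17A (0.04 with TMM), and the calls changed to 1516 higher and 488 lower and to 1227 higher and 517 lower (1017 and 381 between DOX+IL-17A and IL-17A). The cause was not tested. A fit of only DOX+IL-17A and control called 305 and 294 genes, against 856 and 733. With only DOX+IL-17A and IL-17A fitted, 526 and 557 genes were called, against 606 and 606. Why these counts fell was not tested. For DOX+IL-17A against DOX, 14 and 40 genes became 7 and 28 by edgeR, 22 and 71 by DESeq2, 3 and 20 with a pseudocount of 0.1, 22 and 65 with only the compared groups and 6 and 8 with the block. For IL-17A against control, DESeq2 called 12 and 3 genes where limma called 1 and 0.

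Same-numbered libraries were correlated in their deviations from the group means at -0.18 to 0.49 (mean 0.15, 13 pairs, 8 of them above 0.1). Pairs of different numbers had a mean of -0.04 (-0.56 to 0.47, 50 pairs, 13 of them above 0.1). Same-numbered libraries were thus more alike on average, and a shared batch by number was not excluded. The labels do not say what the numbers share, and the main fit used condition alone, with the block as an alternative. With the replicate number as a block, 4 of the 10 genes were called with DOX, *Nfkbie* being added (1.08, adjusted p = 0.037), and 2, 0, 0, 1 and 0 in DOX+IL-17A against control, IL-17A against control, DOX+IL-17A against DOX, DOX+IL-17A against IL-17A and the interaction. Of the further pathway genes named in the report, the block ended the calls of *Nkiras1*, *Tank*, *Map3k1* and *Btrc* with DOX. With DOX+IL-17A against control it ended those of *Nkiras1*, *Il1r1* and *Il1b*. Between DOX+IL-17A and DOX it ended those of *Nfkbiz*, *Usp18* and *Il1a*, and the calls among the 46 targets went from 4 to 2. Depth limits the low genes most, *Bcl3* resting on 19 to 115 reads and *Rel* on 26 to 189.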
